A study of Homo sapiens with 8 samples.

Results

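A set of 7 genes of the actin cytoskeleton, cell adhesion and cell motility were followed in MT-2 and MT-1 cells: FSCN1, CNN3, CD9, ICAM1, CYTIP, RGS13 and GALNT14. They were chosen by name because untreated MT-2 and MT-1 cells differed in them, so the difference between the lines is described here and not tested. Each of the 7 had exactly 1 probe set among the 17709 transcript probe sets with a gene symbol (21448 transcript probe sets in all), and all 7 passed the filter on low values that kept 12942 probe sets. The arrays covered 2 lines and 4 treatments, with 1 array for each of the 8 conditions. MT-2 cells are labelled as infected with HTLV-1, a human retrovirus of T cells, and MT-1 cells as adult T cell leukaemia (ATL). These labels do not say that MT-1 cells are free of the virus. In MT-2 the conditions were 100 nM OR21 (a DNA demethylating agent), 500 nM EPZ-6438 (an inhibitor of the histone methyltransferase EZH2), both at these doses (the combination), and untreated control. In MT-1 they were 500 nM OR21, 2500 nM EPZ-6438, both, and untreated control. Exposure lasted 96 h, with each compound added at seeding and again at 48 h. Doses therefore differed between the lines, and each line is a single established culture.

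T cells move and form contacts through a cortical actin network tied to integrins. Fascin (FSCN1) bundles actin filaments into the spikes of migrating and antigen-presenting cells, and calponin 3 (CNN3) binds actin filaments in non-muscle cells. CD9 is a tetraspanin that gathers integrins in membrane microdomains, and ICAM1 is the ligand of the leukocyte integrin LFA-1. CYTIP binds cytohesin-1 and restrains adhesion through LFA-1, RGS13 switches off G protein signals from chemokine receptors, and GALNT14 starts mucin-type O-glycans on cell surface proteins. Fascin and ICAM1 are known from other work as genes that the HTLV-1 protein Tax raises, fascin through NF-kappaB. RGS13 is best known from germinal centre B cells and mast cells. The part of Tax in the levels below was not tested.

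The values are log2 signals from RMA, which subtracts background, normalizes arrays to each other and summarises probes into probe sets. Some values exceed 16, more than a 16-bit scanner gives without rescaling, so the scale of log2 differences and folds rests on the base 2 of RMA and would change with any later rescaling. The background level of an array was the 95th percentile of its 612 negative-control probe sets, between 7.19 and 7.80, and a gene at or under it is called silent. Where only 1 of the arrays compared stood above background, its level was set against the background level of the other array, and the result is given as "at least" or "or lower". Of the T cell markers, CD5 and IL2RA stood above background on all 8 arrays and CD4 on all 4 of MT-2 and none of MT-1, while CD2, CD3D, CD3E, CD3G and LCK were silent on all 8. CD7 lay near background, above it on 4 MT-1 arrays (7.42 to 7.87) and on 1 MT-2 array. Of the 9 T cell markers, 3 or 4 were above background on each MT-2 array and 3 on each MT-1 array, with none of the CD3 chains among them. The number of arrays limits the precision, and with 1 array per condition no difference within a line has a replicate error.

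Because OR21 acts on DNA methylation, the sequence before each start is shown with its CpG sites in capitals. RefSeq (GRCh38.p14) gave windows of 250 bases before a start for 6 of the 7 genes, several for some, and the window of the outermost start is printed. FSCN1 had no entry. The windows below are those of CNN3 (chr1:94927111-94927360, minus strand), CD9 (chr12:6199696-6199945, plus strand), GALNT14 (chr2:31138441-31138690, minus strand), CYTIP (chr2:157444090-157444339, minus strand) and RGS13 (chr1:192635897-192636146, plus strand), each read 5′ to 3′.
CNN3: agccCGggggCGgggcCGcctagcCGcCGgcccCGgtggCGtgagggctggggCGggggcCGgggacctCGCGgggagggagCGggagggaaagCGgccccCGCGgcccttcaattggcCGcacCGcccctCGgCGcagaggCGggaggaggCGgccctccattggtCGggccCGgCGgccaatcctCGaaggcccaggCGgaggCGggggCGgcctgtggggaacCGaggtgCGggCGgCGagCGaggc
CD9: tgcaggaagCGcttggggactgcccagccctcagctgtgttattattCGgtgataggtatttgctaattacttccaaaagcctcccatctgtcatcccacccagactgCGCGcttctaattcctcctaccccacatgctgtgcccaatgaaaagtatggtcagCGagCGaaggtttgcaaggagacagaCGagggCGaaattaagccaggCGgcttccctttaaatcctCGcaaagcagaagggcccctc
GALNT14: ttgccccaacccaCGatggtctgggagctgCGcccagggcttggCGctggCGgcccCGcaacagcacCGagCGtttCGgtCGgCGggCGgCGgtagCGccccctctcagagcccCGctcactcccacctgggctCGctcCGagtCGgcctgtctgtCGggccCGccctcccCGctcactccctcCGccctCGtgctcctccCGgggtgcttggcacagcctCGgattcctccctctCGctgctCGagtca
CYTIP: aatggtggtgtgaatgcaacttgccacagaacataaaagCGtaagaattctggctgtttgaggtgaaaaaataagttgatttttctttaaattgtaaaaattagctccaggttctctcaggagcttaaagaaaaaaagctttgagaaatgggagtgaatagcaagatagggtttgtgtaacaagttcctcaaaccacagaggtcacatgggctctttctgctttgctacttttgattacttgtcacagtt
RGS13: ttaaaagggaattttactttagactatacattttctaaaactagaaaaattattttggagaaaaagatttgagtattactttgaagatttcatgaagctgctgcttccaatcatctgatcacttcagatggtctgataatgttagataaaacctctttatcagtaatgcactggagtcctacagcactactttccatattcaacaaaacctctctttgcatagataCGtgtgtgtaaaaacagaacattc
CNN3 held 33 CpG sites, a number that 8.14% of the 35114 RefSeq windows reach, and GALNT14 held 26 (19.6% of windows reach that). CD9 held 10 before its outermost start and 28, 29 and 1 before its other 3 starts. CNN3 held 7 and GALNT14 2 before their other start. CYTIP and RGS13 held 1 each, which 93.9% of windows reach. The median window held 11. Before their outermost starts, CNN3, ICAM1 (shown next) and GALNT14 thus lay above this median, and CD9, CYTIP and RGS13 below it. Methylation was not measured on these arrays, and a relation of CpG sites to the levels was not tested.

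ICAM1 is shown for its NF-kappaB-type motif, in capitals (chr19:10270870-10271119, plus strand). The letters GGANNTTCC and GGGNNTTCC were searched on both strands, and 3.84% and 5.78% of all windows hold them.
ICAM1: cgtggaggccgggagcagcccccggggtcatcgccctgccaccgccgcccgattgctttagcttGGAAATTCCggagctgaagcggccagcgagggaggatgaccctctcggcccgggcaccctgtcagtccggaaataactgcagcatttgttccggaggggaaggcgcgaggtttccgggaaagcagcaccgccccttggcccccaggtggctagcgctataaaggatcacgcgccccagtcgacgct
The match, GGAAATTCC, begins 186 bases before the start, and the window held 23 CpG sites. A part of this motif in the ICAM1 levels, or in a response to Tax, was not tested. None of the other windows of the members held either motif.

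The 4 genes of MT-2 stood far above background in that line under every condition. FSCN1 read 16.67 with OR21, 16.48 with EPZ-6438, 16.70 with the combination and 16.67 untreated in MT-2. In MT-1 FSCN1 read 7.82 with OR21, 6.47 with EPZ-6438, 10.39 with the combination and 6.45 untreated. The MT-2 and MT-1 arrays did not overlap, and in MT-1 fascin stood above background with OR21 and with the combination. CD9 read 16.53, 16.48 and 16.62 in MT-2 with OR21, EPZ-6438 and the combination, and 16.35 untreated. In MT-1 CD9 read 6.13 with OR21, 7.38 with EPZ-6438, 11.53 with the combination and 4.28 untreated. CD9 in MT-1 thus spanned a wider range than any other of the 7 genes in either line, with the combination array far above the other 3. FSCN1 and CD9 in MT-2 lay above 16 on every array, so small differences there may not be readable and their gaps to MT-1 may be understated. Between 106 and 137 probe sets per array lay above 16.

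CNN3 read 14.74, 14.82 and 14.52 in MT-2 with OR21, EPZ-6438 and the combination, and 15.07 untreated. In MT-1 CNN3 read 7.46, 5.37 and 7.87 with OR21, EPZ-6438 and the combination, and 5.22 untreated. Calponin 3 in MT-1 lay just above background on the 2 arrays that received OR21, alone or in the combination, and below it on the other 2. ICAM1 read 15.41 with OR21, 14.79 with EPZ-6438, 15.69 with the combination and 14.68 untreated in MT-2. In MT-1 ICAM1 read 7.43, 6.67 and 8.5 with OR21, EPZ-6438 and the combination, and 6.89 untreated. In both lines the OR21 and combination arrays held the higher ICAM1 levels.

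The 3 genes of MT-1 were silent on all 4 arrays of MT-2. CYTIP read 4.03, 3.32 and 3.70 in MT-2 with OR21, EPZ-6438 and the combination, and 4.0 untreated. In MT-1 CYTIP read 13.28 with OR21, 13.85 with EPZ-6438, 12.63 with the combination and 14.06 untreated, so every treated array lay under the untreated one. RGS13 read 5.22, 5.39 and 5.26 in MT-2 with OR21, EPZ-6438 and the combination, and 5.44 untreated. In MT-1 RGS13 read 14.72, 14.28 and 14.87 with OR21, EPZ-6438 and the combination, and 14.73 untreated, a range of 0.59. GALNT14 read 3.11, 3.42 and 3.43 in MT-2 with OR21, EPZ-6438 and the combination, and 3.04 untreated. In MT-1 GALNT14 read 12.23, 12.88 and 11.84 with OR21, EPZ-6438 and the combination, and 12.48 untreated. All MT-2 values of these genes lay more than 2 below the background of their arrays, and no order among them can be read.

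**Figure D1:**
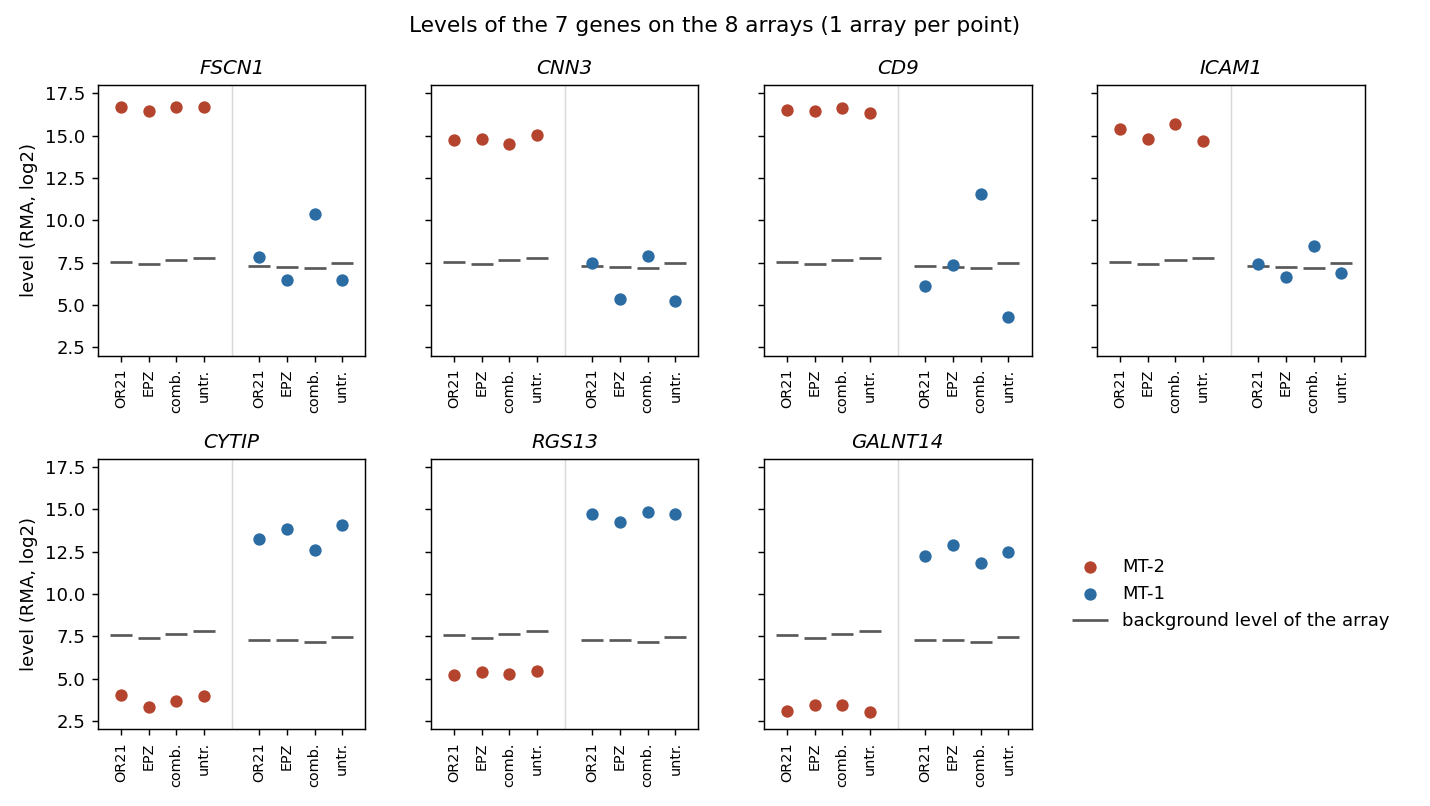
Level of each gene (RMA, log2) on the 4 MT-2 arrays (red) and the 4 MT-1 arrays (blue), 1 array per point, with the background level of each array as a short bar. CD9 reached 11.53 and FSCN1 10.39 in MT-1 with the combination, while CYTIP, RGS13 and GALNT14 stayed below background on every MT-2 array.

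The gap between the lines held its direction in all 4 matched treatments for each of the 7 genes. For CD9, FSCN1 and CNN3 it was smallest under the combination, where the MT-1 level was highest. MT-2 was higher than MT-1 in CD9 by at least 9.24 with OR21, 9.11 with EPZ-6438, 5.10 with the combination and at least 8.90 untreated. For FSCN1 MT-2 was higher by 8.85 with OR21, at least 9.21 with EPZ-6438, 6.31 with the combination and at least 9.21 untreated. For CNN3 the gap was 7.28 with OR21, at least 7.56 with EPZ-6438, 6.65 with the combination and at least 7.61 untreated. For ICAM1 it was 7.99, at least 7.52, 7.19 and at least 7.22 in the same order. After median centring the ICAM1 gap was 7.25 with the combination and at least 7.11 untreated, and after cyclic loess 7.61 and at least 7.44. Which treatment had the smallest ICAM1 gap can therefore not be read. The ICAM1 level under the combination was higher than untreated in both lines.

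MT-2 was lower than MT-1 in RGS13 by a difference of -7.16 or lower with OR21, -6.84 or lower with EPZ-6438, -7.23 or lower with the combination and -6.93 or lower untreated. For CYTIP the difference was -5.71, -6.41, -5.00 and -6.26 or lower in the same order, and for GALNT14 -4.67, -5.44, -4.20 and -4.67 or lower. These bounds set the MT-1 level against the MT-2 background, since MT-2 was silent throughout. Among all 12942 probe sets tested, 15.7% were higher and 27.2% lower by 1 or more in untreated MT-2 than in untreated MT-1. Against the background level, 0.966% were higher and 0.556% lower by 4 or more, a size that all 7 members reached because they were chosen on this contrast. Higher by 1 or more were 15.0% with OR21, 14.9% with EPZ-6438 and 15.6% with the combination, and lower by 1 or more 26.9%, 25.5% and 25.8%. Higher by 4 or more against the background level were 0.919%, 1.12% and 0.997% in the same order, and lower by 4 or more 0.757%, 0.634% and 0.989%. The median difference over all probe sets tested lay between -0.30 and -0.24 in the 4 treatments, so the gaps above are to be read against that shift.

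**Figure D2:**
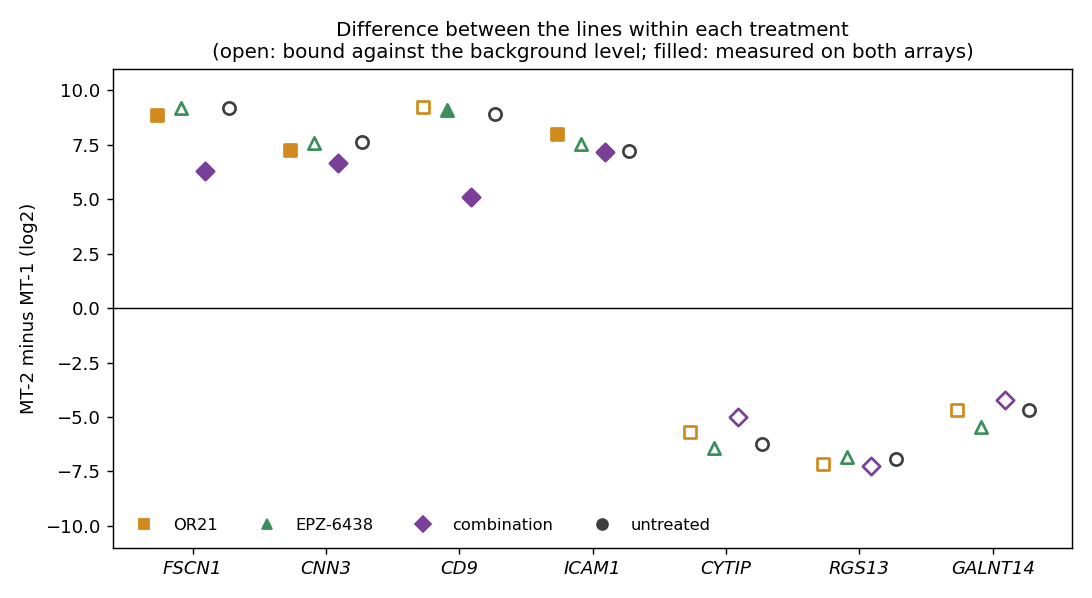
MT-2 minus MT-1 (log2) for each gene with OR21, EPZ-6438, the combination and no treatment, where open symbols are bounds against the background level and filled symbols were measured on both arrays. The combination values of CD9 (5.10) and FSCN1 (6.31) lie nearest to 0 among the genes of MT-2.

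Whether a treatment raised a gene in the line where it was silent was asked next. CD9 in MT-1 was higher than untreated by at least 4.07 with the combination, at least 16.8-fold, whereas with either agent alone it stayed under the untreated array's background level. As deposited, CD9 was higher by 3.10 with EPZ-6438, rank 4 of 12942 on that array, but its level of 7.38 lay between the background of that array (7.27) and of the untreated one (7.46). The combination was higher than EPZ-6438 alone by 4.15 and than OR21 alone by at least 4.23. FSCN1 in MT-1 was higher by at least 2.93 with the combination, by at least 0.36 with OR21, and not above background with EPZ-6438. The combination exceeded OR21 alone by 2.57 for FSCN1. In these bulk samples, a high level in few cells and a lower one in many cannot be told apart.

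ICAM1 in MT-1 was higher by at least 1.04 with the combination, a bound that was 0.80 after median centring of the arrays and 0.90 after cyclic loess. Its combination level exceeded that with OR21 by 1.07. With the 99th percentile of the negative controls as background, ICAM1 was not above background on the MT-1 combination array. CNN3 in MT-1 was higher by at least 0.42 with the combination and at least 0.01 with OR21, and by 2.66 and 2.25 as deposited. Thus 3 of the 4 genes silent in untreated MT-1 were higher there by 1 or more with the combination, 0 with OR21 and 0 with EPZ-6438. Counted in the same way, with bounds against background, 6.35% of the 12942 probe sets were higher there by that much with the combination, 2.11% with OR21 and 0.232% with EPZ-6438. On the deposited values, without bounds, the members' counts were 4 with the combination, 3 with OR21 and 1 with EPZ-6438, beside 11.2%, 5.35% and 1.03% of all probe sets. All 4 stood above the background of their own array with the combination, 3 with OR21 and 1 with EPZ-6438. Of all 21448 transcript probe sets, 9718, 9322 and 9331 did so, and 8949 untreated. The untreated MT-1 array had the highest background of that line (7.46), above ICAM1 with OR21 (7.43) and CD9 with EPZ-6438 (7.38). None of the 3 genes silent in MT-2 stood above background with any treatment, at the lower doses used in that line, where 2.47% of all probe sets were higher by 1 or more above background with the combination, 0.672% with OR21 and 0.27% with EPZ-6438. On the deposited values those shares were 5.05%, 2.36% and 0.896%, and 0 of the 3 genes were higher by 1 or more.

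These counts were set beside all probe sets with the same starting pattern, a comparison chosen after the values were seen. In untreated MT-1, 86 probe sets were silent while being above background on all MT-2 arrays and higher in untreated MT-2 by 4 or more. Of these, 36.0% were higher by 1 or more above background in MT-1 with the combination, 9.3% with OR21 and 0.0% with EPZ-6438, and 55.8%, 30.2% and 15.1% stood above background. Higher by 2 or more were 25.6% with the combination, CD9 and FSCN1 among them, 5.81% with OR21 and 0.0% with EPZ-6438. CD9 ranked 8 and FSCN1 12 of the 31 probe sets counted with the combination, and ICAM1 was the last. The highest named genes were S100A11 (at least 6.97), GLUL (at least 6.42) and LGALS1 (at least 5.57). The mirror set held 52 probe sets silent in untreated MT-2 and on in MT-1. Of these, 5.77% were higher by 1 or more in MT-2 with the combination, and 0.0% with OR21 and with EPZ-6438, while 19.2%, 17.3% and 21.2% stood above background with the combination, OR21 and EPZ-6438. The difference between the lines in these shares was not tested, and the doses differed.

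**Figure D3:**
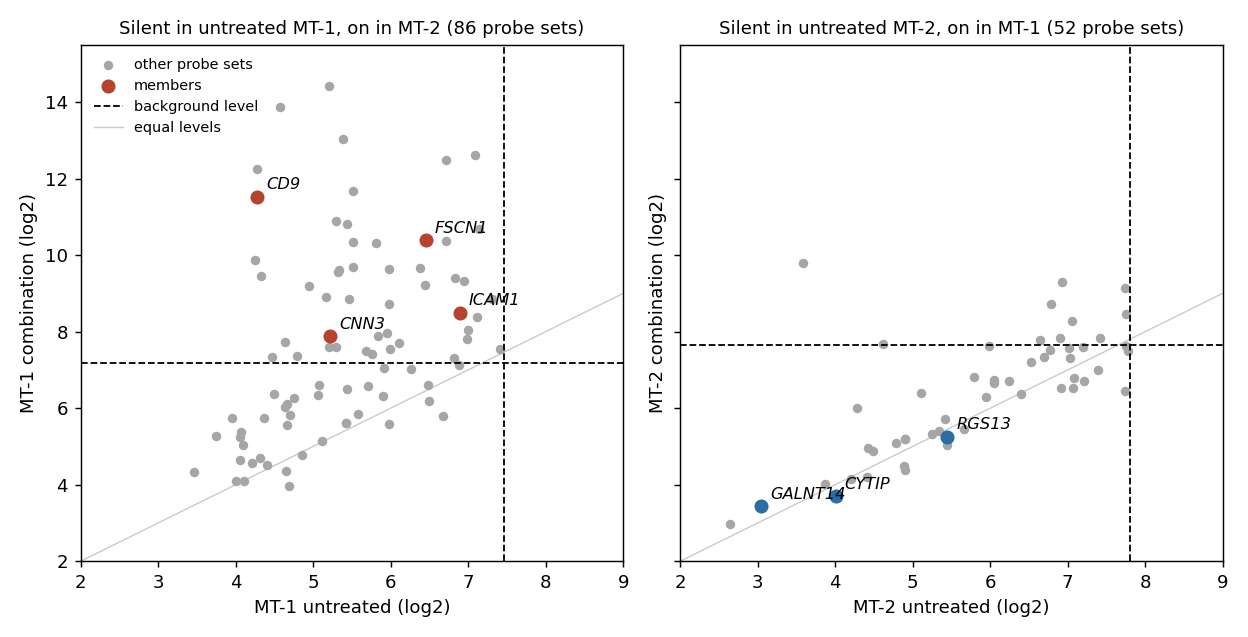
Level with the combination (vertical) against the untreated level (horizontal, both log2) in MT-1 for 86 probe sets silent there and on in MT-2, and in MT-2 for 52 probe sets with the mirror pattern, with members named and background levels dashed. CD9 and FSCN1 lie well above the equal-level line in MT-1, and CYTIP, RGS13 and GALNT14 lie on or near it in MT-2.

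In the line where a gene was on, differences with treatment were smaller than those of CD9 and FSCN1 in MT-1 with the combination. Over the 21 changes of the 7 genes in their high line, values lay between -1.43 and 1.01. The lowest was CYTIP in MT-1 with the combination (-1.43), with -0.79 for OR21 and -0.22 for EPZ-6438. The highest was ICAM1 in MT-2 with the combination (1.01), with 0.74 for OR21 and 0.11 for EPZ-6438. Lower by 1 or more among all probe sets were 3.75% with OR21, 0.294% with EPZ-6438 and 9.64% with the combination in MT-1, and 1.69%, 0.355% and 1.95% in MT-2. GALNT14 differed by -0.63 with the combination and 0.40 with EPZ-6438 in MT-1, RGS13 by -0.46 with EPZ-6438, and CNN3 by -0.55 with the combination in MT-2. FSCN1 and CD9 stayed within 0.27 of untreated in MT-2 under each treatment.

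Across both lines, limma (cell line and treatment fitted to all 8 arrays, Benjamini-Hochberg adjusted p over all 12942 probe sets) called no member with any treatment. It called 0 probe sets with OR21, EPZ-6438 or the combination (0.0% each), with 1079, 285 and 2489 at an unadjusted p under 0.05. ICAM1 differed by 1.31 ± 0.27 (SE) with the combination, higher in both lines (limma unadjusted p = 0.00271, adjusted p = 0.166). CD9 differed by 3.76 ± 1.48 (SE) with the combination (limma unadjusted p = 0.0429, adjusted p = 0.248) and FSCN1 by 1.98 ± 0.90 (SE, adjusted p = 0.289). All estimates of these fits are of the deposited values, without bounds. In them the untreated MT-1 levels of ICAM1, CD9 and FSCN1 lay below background. The adjusted p of the 7 genes lay between 0.166 and 0.963 with the combination and between 0.587 and 0.938 with OR21, and was 1.0 for each with EPZ-6438. The error of this model comes from how differently the lines responded, which was wide for CD9 and FSCN1. Without the MT-2 combination array, only the MT-1 array carried the combination, while its untreated reference still drew on both lines. That fit takes the gap between the lines as equal in every treatment. Its estimates with the combination were 3.67 for FSCN1, 6.47 for CD9 and 1.7 for ICAM1. There the lone MT-1 array is assumed to vary like the others.

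Some markers of other cell types were higher in MT-1 with the combination than untreated, where 11.2% of all probe sets were higher by 1 or more as deposited. Of 6 epithelial markers, 4 stood above background on the MT-1 combination array, against 1 on the untreated array. KRT8 read 12.91 with the combination and 7.77 untreated, KRT18 9.10 and 5.03, EPCAM 8.66 and 4.71, and KRT19 8.27 and 6.53, while CDH1 and CLDN4 were silent on all arrays. The log2 of their summed signal ranged from 8.67 to 13.14 over the MT-1 arrays and from 8.62 to 8.90 over those of MT-2. Of 7 fibroblast and smooth muscle markers, 1 or 2 were above background on any array (summed signal 10.96 to 13.65 in MT-1 and 11.16 to 11.59 in MT-2), and ACTA2 read 13.61 with the combination against 10.74 untreated in MT-1. Of 4 mast cell markers only HDC was above background on any array, and KIT, TPSAB1 and CPA3 were silent. HDC read 11.98 with the combination, 10.37 with OR21 and 6.19 untreated in MT-1. In MT-2 HDC read 8.73, 8.54 and 6.36 in the same order. KRT8 (10.02) and ACTA2 (12.57) were also higher than untreated in MT-1 with OR21 alone. The B cell markers MS4A1, PAX5 and BLNK and the myeloid markers CD14, LYZ, CSF1R, CD68, CD1C, CLEC9A and FCER1A were silent on all 8 arrays. CD79A was above background on 3 MT-2 and 2 MT-1 arrays, CD79B on 2 and 1, and ITGAX on 2 and 2, with no level over 7.89 among them. The log2 of the summed signal ran from 9.05 to 9.11 in MT-2 and 8.27 to 8.66 in MT-1 for the B cell list, and from 8.79 to 9.10 in MT-2 and 8.33 to 8.62 in MT-1 for the myeloid list. The part of these markers in the CD9, FSCN1, CNN3 and ICAM1 values was not tested.

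Relatives of the 7 genes showed how far each family separated the lines. In the limma fit of MT-2 minus MT-1 over the 4 matched treatments, 22.7% of the 12942 probe sets were called higher and 40.7% lower, and after cyclic loess 3906 were higher and 3963 lower. Each p here comes from the deposited values and measures the spread of the gap over 4 treatments of 1 culture per line. Where a gene was silent on all arrays of a line, the size is given as a bound, the mean level of the other line against the mean background of the silent one. Of 121 tested non-members in 9 families, 38 were called higher in MT-2 (31.4%) and 44 lower (36.4%). These totals are of the deposited values, and the balance of higher and lower calls moved with the scaling. Among 7 other actin bundling and crosslinking genes, 2 were higher and 3 lower, with a median of -0.38 against -0.30 for all probe sets. LCP1, the leukocyte plastin, was higher in MT-2 by 2.0 ± 0.18 (SE, limma adjusted p = 0.000212), with MT-2 levels above 16. Its relative PLS3 was silent in MT-2 and differed by -1.47 or lower (adjusted p = 1.55e-05). ACTN1, which crosslinks actin at adhesions, differed by -2.67 ± 0.19 (adjusted p = 8.11e-05), and PLS1, silent in MT-2, by -1.32 or lower (adjusted p = 5.3e-05). These 4 kept their direction in all 4 treatments, with LCP1 on the side of fascin and the other 3 opposite to it.

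Of 7 other calponins, transgelins and tropomyosins, 2 were higher in MT-2 and 3 lower (median 0.05). CNN2, another calponin, differed by -2.13 ± 0.35 (SE, limma adjusted p = 0.00243), the reverse of CNN3. It read 9.45, 10.02, 9.36 and 10.72 in MT-2 with OR21, EPZ-6438, the combination and no treatment, and 12.16, 11.54, 12.49 and 11.88 in MT-1. TPM2 (adjusted p = 0.0167) and CALD1 (adjusted p = 0.0209) were called lower in MT-2, where TPM2 was above background on 0 arrays and CALD1 on 1, against 2 and 4 in MT-1. In MT-1 with the combination they were higher than untreated by at least 2.33 and by 1.44. TPM2 was also higher there with OR21, by at least 1.78, and was silent in both lines untreated and with EPZ-6438. TPM1 was called higher in MT-2 without standing above background on any array.

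Of 23 other tetraspanins and CD9 partners, 9 were higher in MT-2 and 5 lower (median 0.06). The leukocyte tetraspanin CD53 was higher (limma adjusted p = 3.53e-05), at a mean of 12.34 in MT-2 while only the combination array of MT-1 was above background (7.35). TSPAN15, a partner of the protease ADAM10, was silent in MT-1 and higher in MT-2 by at least 1.02 (adjusted p = 5.17e-06), and TSPAN31 likewise by at least 2.16 (adjusted p = 2.67e-05). CD82 was also higher in MT-2 (adjusted p = 0.000289), by at least 4.94 untreated and 3.01 with the combination. With the combination in MT-1, 6 of the 23 were higher by 1 or more with bounds against background and 1 lower. With such bounds 6.35% of all probe sets were higher by that much. As deposited, without bounds, 11 of the 23 were higher and 1 lower, where all probe sets gave 11.2% and 9.64%. TSPAN6 was higher by at least 2.38, CD82 by at least 2.19 and TSPAN9 by 1.84, while CD151, a tetraspanin of laminin-binding integrins, was lower by a difference of -1.59. With 1 array per condition these counts have no test.

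Of 16 other ICAMs and integrins, 4 were higher in MT-2 and 8 lower (median -1.22). ITGAL, the alpha chain of the ICAM1 receptor LFA-1, differed by -3.38 or lower (limma adjusted p = 2.66e-06). It was silent on all MT-2 arrays. In MT-1 it read 10.57, 11.11, 11.13 and 11.17 with OR21, EPZ-6438, the combination and no treatment. ICAM1 and this alpha chain thus stood high in opposite lines. ITGB2, the other chain of LFA-1, was called higher in MT-2, by 2.74 as fitted, on the side of ICAM1. ITGB1, the beta chain of the matrix-binding integrins, was silent in MT-1 and higher in MT-2 by at least 3.03 (adjusted p = 3.7e-06). ITGB5, silent in MT-2, differed by -0.67 or lower (adjusted p = 3.64e-05). ITGA2 was called lower in MT-2 (adjusted p = 0.00111) but was above background only in MT-1 with the combination. ICAM2 read 7.83 with the combination and 11.31 untreated in MT-1 (-3.48), and ICAM3 8.20 and 10.08 (-1.88), both the opposite way to ICAM1 on the same array.

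Of 9 other cytohesin and integrin activation genes, 2 were higher in MT-2 and 5 lower (median -0.62), and after cyclic loess 4 were higher and 2 lower. CYTH1, the cytohesin that CYTIP binds, was called higher in MT-2 (limma adjusted p = 0.0372), in 3 of 4 treatments, by at least 1.73 untreated. With the combination it read 9.35 in MT-2 and 9.61 in MT-1, where it was higher than untreated by at least 2.16 while CYTIP was lower. CYTH2 was higher by 0.94 ± 0.15 (adjusted p = 0.00232), and CYTH3, silent in MT-2, differed by -0.38 or lower (adjusted p = 0.00132) and the integrin-activating GTPase RAP1B by -0.94 ± 0.18 (adjusted p = 0.0048).

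Of 10 other RGS genes, 3 were higher in MT-2 and 4 lower (median -0.25). RGS1, which dampens chemokine responses in lymphocytes, was higher in MT-2 (limma adjusted p = 0.00174), by at least 4.52 untreated and 2.27 with the combination. RGS16 was higher likewise (adjusted p = 0.000262), by at least 3.17 and by 2.39, so both ran opposite to RGS13. RGS6, silent in MT-2, differed by -2.55 or lower (adjusted p = 1.41e-05) and RGS2 by -2.60 ± 0.29 (SE, adjusted p = 0.000463). RGS1 in MT-1 read 10.34 with the combination and 5.51 untreated, higher by at least 2.88, and RGS16 was higher by at least 1.55. Of 14 other O-glycan genes, 5 were higher in MT-2 and 6 lower (median -0.49), and after cyclic loess 4 and 3. GALNT3, silent in MT-2, differed by -1.17 or lower (adjusted p = 8.29e-06). GALNT3 thus lay on the side of GALNT14 in all 4 treatments. GALNT5 was called lower in MT-2 too (limma adjusted p = 0.00272), silent there and above background on 2 of 4 MT-1 arrays. Those were the OR21 and combination arrays. Untreated and with EPZ-6438 GALNT5 was silent in both lines, so no direction can be read there. GALNT5 read 10.49 with OR21, 10.90 with the combination and 7.04 untreated in MT-1, higher by at least 3.03 and at least 3.44. GALNT6 was called lower and GALNT13 higher (adjusted p = 0.000382), but GALNT6 was above background on no array and GALNT13 on 1.

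Of 25 actin polymerisation and cortex genes, 5 were higher in MT-2 and 7 lower (median -0.15), and after cyclic loess 7 and 5. DOCK8, an activator of CDC42 needed for lymphocyte migration, was silent on all MT-2 arrays and differed by -3.65 or lower (limma adjusted p = 2.54e-06). ENAH, which speeds actin filament growth, was higher in MT-2 (adjusted p = 0.0121), by at least 2.28 untreated and 0.42 with the combination, and in MT-1 it read 9.92 with the combination and 5.34 untreated. ARPC5 differed by -1.86 ± 0.13 (SE, adjusted p = 8.74e-05) and the formin DIAPH1 by -1.74 ± 0.16 (adjusted p = 0.000232). Of 10 chemokine receptor and homing genes, 6 were higher and 3 lower (median 0.79). CD44, the hyaluronan receptor, was silent in MT-1 and higher in MT-2 by at least 4.38 (adjusted p = 3.74e-06), and CCR6 by at least 2.35 (adjusted p = 0.00146). CCR8, silent in MT-2, differed by -4.52 or lower (adjusted p = 9.84e-05) and S1PR1, the receptor for lymphocyte egress, by -3.16 ± 0.33 (SE, adjusted p = 0.00036). No gene of the 9 families was called by limma for a treatment.

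**Figure D4:**
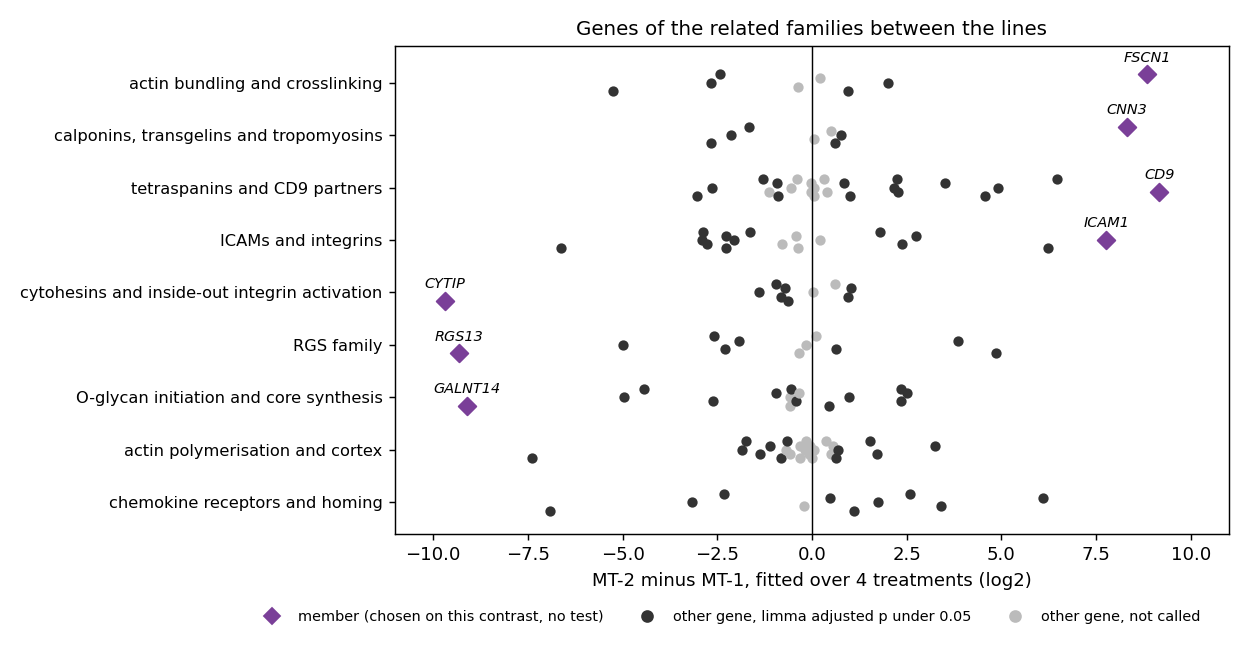
MT-2 minus MT-1 (log2, fitted over 4 treatments to the deposited values, with no bound for silent genes) for the tested genes of 9 families, 1 point per gene, with members as diamonds and other genes dark where limma called them. The members lie at the outer end of their families, as chosen, and 38 of the 121 other genes were called higher and 44 lower.

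The genes whose centred profile over the 8 arrays lay nearest to each member were sought among all named probe sets tested. For FSCN1 these were TOX, a T cell transcription factor, at a root mean square difference of 0.271 log2 units (Pearson r = 0.999 over 8 arrays), and ALOX5AP at 0.506. TOX read 8.85 in MT-1 with the combination and 5.46 untreated. CD9 had the same nearest genes at 1.206 and 1.279, farther than those of any other member. For CNN3 they were KIF26B at 0.363 and C1orf21 at 0.462, and for ICAM1 SLC7A2 at 0.374 and CD4 at 0.379. CYTIP, RGS13 and GALNT14 shared OSBPL10, at 0.681, 0.312 and 0.490, and RAB4A, at 0.809, 0.596 and 0.510. All these profiles share the 8 arrays and the split between the lines.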

How the data were processed

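The table holds 24351 entries for 8 arrays as log2 values, deposited by the authors after RMA, per the labels' processing tools. Neither the RMA version nor the array's genome build was given in the sources used here. Base 2 was inferred, since RMA writes log2 values. Values above 16 exceed a 16-bit scanner's range, so a rescaling after RMA is possible and would change every log2 difference and fold. Values ran from 2.14 to 18.91. The 2903 control probe sets were left out. Probe sets were kept where their highest value reached the table's median (6.573). A platform annotation named 17709 probe sets, all found in the RefSeq gene table.

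Limma 3.58.1 (R 4.3.3) fitted cell line and treatment (lmFit, eBayes), with 3 residual degrees of freedom, and calls were made at an adjusted p under 0.05. The fit was tested on simulated data. Named were all 7 members, up to 4 called non-members per family by size of the fitted line difference, and the 2 nearest profiles per member. The highest genes of the set silent in MT-1, and family genes that differed with the combination, were named after their values were seen. The members and lists were chosen with earlier results of these data known. Bounds against the background level, the 250-base windows and the sets of silent probe sets are this re-analysis's choices. Other scalings, filters, background levels, a variance trend and leaving out each array were tried. Replicate cultures were not analysed here, so p-values measure only the spread between these arrays.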

Additional observations from a re-analysis of the deposited data

Results flagged for a closer look

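For 3 changes the lines' signs differed as computed, with 1 array per line and treatment, and these differences were not tested. CNN3 with the combination stood at least 0.42 above untreated in MT-1 and differed by -0.55 in MT-2, a difference of 0.97 or more between the changes. CNN3 with OR21 stood at least 0.01 above untreated in MT-1 and differed by -0.33 in MT-2, 0.33 or more apart. FSCN1 with OR21 stood at least 0.36 above untreated in MT-1 and read 16.67 on both MT-2 arrays (-0.0 after rounding, which is no readable direction), 0.36 or more apart. In MT-2 that value was 0.07 with arrays centred over the probe sets tested and 0.09 after cyclic loess, the sign of MT-1. Doses differed between the lines.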

How the results depend on the processing

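The fit already matched the lines by treatment, and no replicate numbers were given to add as a block. The gap between the lines kept its direction for all 7 genes in every treatment, over the alternative scalings and background levels. Limma called 14 probe sets with the combination under a variance trend with robust fitting (no member among them), against 0 in the fit reported. Leaving out 1 array at a time gave 0 to 740 calls with the combination, 740 without the MT-2 combination array, and 6711 to 8167 for the line difference. For OR21 and EPZ-6438 limma called 0 in every alternative. With each array centred on its median over the probe sets tested (added after the values were seen), 4072 probe sets were higher and 3862 lower in MT-2. With the 50th percentile of the negative controls as background, 3 members in MT-1 were higher by 1 or more with OR21 and 1 with EPZ-6438, against 0 each. With the combination the count was 3, and 2 to 4 over the alternatives. The bound of CD9 ran from 2.84 with the 99th percentile to 6.88 with the 50th (7.25 as deposited), and that of FSCN1 from 1.70 to 3.94. CNN3 was not above background in MT-1 with the 99th percentile. Signal near background limits every value of a silent gene.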
